A study of Homo sapiens with 4 samples.

Results

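A group of 10 heat shock genes was compared between human leukaemic cells recovered from the brain and from the spleen of mice, as a check on handling stress. The group was HSPA1A, HSPA1B, HSPA8, HSPH1, DNAJB1, HSP90AA1, HSP90AB1, HSPD1, HSPE1 and BAG3. The genes were chosen by symbol, through GENCODE release 44, and all 10 were found among the 65217 gene rows of the deposited count table. The cells were SEM, a long-established human line of B-lineage acute lymphoblastic leukaemia with the KMT2A-AFF1 (MLL-AF4) fusion, and every library came from this 1 line, so other leukaemias were not sampled. Cells had been transplanted into immunodeficient mice of 6 to 10 weeks, whose strain is not given in the sources used here, and the labels name no drug or added genetic change in either group. The groups were cells from brain (2 libraries, collected from the leptomeninges per the labels' treatment protocol) and cells from spleen (2 libraries). Each library pooled RNA of 5 mice, and the replicate number marks 1 of 2 occasions on which the experiment was done. Cells were enriched on a density gradient and frozen as pellets before RNA extraction.

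Heat shock proteins are chaperones, which bind unfolded proteins and help them to fold or to be degraded. HSP70 proteins (HSPA1A, HSPA1B, HSPA8) hold unfolded stretches in an ATP-driven cycle, J-domain proteins such as DNAJB1 deliver clients to them, and HSPH1 and BAG3 exchange their nucleotide. HSP90 proteins (HSP90AA1, HSP90AB1) act later, on nearly folded clients such as kinases and steroid receptors, while HSPD1 and its lid HSPE1 form the folding chamber of the mitochondrial matrix. On proteotoxic stress the transcription factor HSF1 binds repeats of an inverted GAA unit and induces HSPA1A, HSPA1B, DNAJB1, HSPH1, HSP90AA1 and BAG3 within minutes. HSPA8 and HSP90AB1 are the constitutive forms. Tissue dissociation and cooling or warming of cells can start the same response, which is why these genes serve as a check on handling.

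Upstream sequences of inducible and constitutive members are shown for the HSF1 units they hold. RefSeq promoter windows (GRCh38.p14) were found for all 10 genes, 16 windows in all, and the 250 bases before each start were searched on both strands for the two-unit motif GAANNTTC or TTCNNGAA. The three-unit motif GAANNTTCNNGAA or TTCNNGAANNTTC contains a pair of overlapping two-unit matches. Capitals mark the two-unit matches. HSPA1A (chr6:31815293-31815542, plus strand), HSPA1B (chr6:31827488-31827737, plus strand), DNAJB1 (chr19:14518398-14518647, minus strand, 1 of 3 windows), HSPA8 (chr11:123062137-123062386, minus strand) and HSP90AA1 (chr14:102087045-102087294, minus strand, 1 of 2 windows) read as follows, 5′ to 3′.
HSPA1A: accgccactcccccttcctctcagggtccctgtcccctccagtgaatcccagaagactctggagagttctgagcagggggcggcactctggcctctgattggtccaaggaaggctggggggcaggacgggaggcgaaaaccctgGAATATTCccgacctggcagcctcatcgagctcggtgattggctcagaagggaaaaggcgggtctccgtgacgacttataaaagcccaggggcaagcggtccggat
HSPA1B: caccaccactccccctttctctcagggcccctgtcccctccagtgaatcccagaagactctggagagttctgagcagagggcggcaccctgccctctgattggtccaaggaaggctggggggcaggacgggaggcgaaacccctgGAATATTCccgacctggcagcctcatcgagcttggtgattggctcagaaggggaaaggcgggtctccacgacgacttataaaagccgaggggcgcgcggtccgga
DNAJB1: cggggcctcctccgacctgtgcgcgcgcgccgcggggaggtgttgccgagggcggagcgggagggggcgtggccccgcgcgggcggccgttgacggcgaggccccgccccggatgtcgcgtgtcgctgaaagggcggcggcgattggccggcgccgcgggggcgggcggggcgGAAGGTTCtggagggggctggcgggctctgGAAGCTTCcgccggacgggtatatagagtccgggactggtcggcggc
HSPA8: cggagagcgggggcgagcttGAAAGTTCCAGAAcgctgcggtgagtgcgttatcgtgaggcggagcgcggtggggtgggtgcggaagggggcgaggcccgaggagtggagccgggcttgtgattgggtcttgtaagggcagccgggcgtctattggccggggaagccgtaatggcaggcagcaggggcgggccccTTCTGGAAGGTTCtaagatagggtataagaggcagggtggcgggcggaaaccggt
HSP90AA1: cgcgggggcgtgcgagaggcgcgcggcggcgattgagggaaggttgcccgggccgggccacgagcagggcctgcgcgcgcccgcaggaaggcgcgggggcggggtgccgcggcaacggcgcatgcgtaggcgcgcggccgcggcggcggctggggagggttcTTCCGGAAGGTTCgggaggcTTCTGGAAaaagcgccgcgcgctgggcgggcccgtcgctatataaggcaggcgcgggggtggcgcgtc

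HSPA1A and HSPA1B each held 1 two-unit match, 106 and 105 bases before the start. DNAJB1 held 2 separate matches, 77 and 47 bases before the start. HSPA8 held 2 three-unit motifs, which began 230 and 55 bases before the start, and HSP90AA1 held 1, at 88 bases. HSPD1 and HSP90AB1 also had a window with 2 three-unit motifs. Over the members, 4 of 16 windows (25%) held a three-unit motif and 7 of 16 (43.8%) a two-unit one, where 0.441% and 11.6% of all 35116 windows did. The windows of HSPE1, HSPH1 and BAG3 had no match, which says only that these letters are not in the 250 bases searched. For HSPE1 the window (197500129 to 197500378) lies mostly within the annotated gene, which starts at 197500140. The HSPD1 window with the motifs (197499841 to 197500090) lies just upstream of that HSPE1 start. The upstream windows of HSPA1A and HSPA1B differed by 16 single-base edits.

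These duplicates matter for the counts as well. HSPA1A and HSPA1B lie side by side on chromosome 6, at 31815543 to 31817946 and 31827738 to 31830254, and the longest reading frames of their main transcripts, of 1926 bases, were 99.8% identical, with 4 mismatches and the same protein of 641 residues. Reads from the shared coding part cannot be placed in 1 copy with certainty, so the split between the copies is uncertain and their sum is given beside them. HSPA8 lies on chromosome 11 at 123057489 to 123063230, HSPH1 on chromosome 13 at 31134973 to 31162388, DNAJB1 on chromosome 19 at 14514769 to 14560391 and HSP90AA1 on chromosome 14 at 102080742 to 102139699. HSP90AB1 lies on chromosome 6 at 44246166 to 44253888 and BAG3 on chromosome 10 at 119651380 to 119677819. HSPD1 (chromosome 2, 197486584 to 197516737) and HSPE1 (197500140 to 197503449) overlap on opposite strands, and HSPD1 had 619% as many counts as HSPE1. HSPE1 also shares sequence with the read-through gene HSPE1-MOB4, which had 4.74% as many counts. On the opposite strand, DNAJB1 overlaps TECR, which had 86.9% as many counts as DNAJB1, and HSP90AA1 overlaps WDR20, with 0.942%. The library kit keeps strand, but the strand setting of the counting is not given in the sources used here, so the counts of these overlapping genes are uncertain. The 63 pseudogenes named after a member held 0.0234% as many counts as the members together.

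The libraries held between 26266136 and 36913437 counts, so that 3 counts correspond to at most 0.114 CPM (reads per library total of 1e6) before TMM factors. All levels below are CPM with TMM factors. All 14 markers of precursor B and KMT2A leukaemia passed the count filter, and edgeR called 0 higher and 1 lower, CD34, with 135 and 104 CPM in brain and 337 and 280 CPM in spleen (adjusted p = 0.0126, and 0.0607 with the stricter filter), where 1.63% of all genes were called higher and 0.387% lower. With the replicate block 3 were also called higher, where 7.48% of all genes were, at log2 fold changes of 2.72 for IGLL1 (adjusted p = 1.04e-28), 1.37 for CD79B (2.18e-08) and 0.71 for EBF1 (0.00572). Of 13 markers of brain cells 5 passed the count filter. Of the 5, 3 were higher in brain without overlap and 0 lower, where 30.2% and 26.7% of all genes were. None passed edgeR (3 at an unadjusted p under 0.05, where 20.6% of all genes were). With the block 2 were called higher, SYT1 (48.1 and 37.4 CPM in brain, 24.3 and 16.3 CPM in spleen; adjusted p = 7.11e-05) and COL1A1 (1.92 and 1.49 CPM in brain, 0.364 and 0.831 CPM in spleen; adjusted p = 0.00667). SNAP25 and PTGDS were at 0 and GFAP at 0.0910 CPM or less. The summed level of the 13 was 184 and 157 CPM in brain and 120 and 108 CPM in spleen, nearly all of it MBP and SYT1. Of 15 markers of other blood and spleen cells 6 passed the filter, CD3D, S100A8 and PF4 were at 0, and the sum was 171 and 130 CPM in brain and 140 and 149 CPM in spleen. By edgeR 1 was called, MS4A1, with 3.38 and 2.87 CPM in brain and 1.00 and 1.15 CPM in spleen (adjusted p = 0.0475). MS4A1 is itself a B-lineage gene, so in this B-lineage line it does not mark other cells. Its call ended with GC and length offsets (0.0603), with transcript sums (0.0506) and without brain replicate 1 (0.136). With the block PECAM1 was also called higher (adjusted p = 0.000913) and VWF lower (0.00415). Mouse transcripts took 2.24% and 1.45% of the estimated counts in brain and 4.31% and 6.32% in spleen. The part of mouse RNA and of these marker levels in the results below was not tested. The chi-square of the counts between replicates averaged 9.35 per gene in brain and 64.1 in spleen, so the spleen libraries differed more from each other.

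In pooled cells, fewer cells with a transcript and less of it per cell cannot be told apart. The summed level of the heat shock genes overlapped between the sites. It came to 7120 and 8035 CPM in brain and to 8183 and 8071 CPM in spleen, between 0.713% and 0.830% of all counts. By level per transcript length (TPM, scaled by the authors over human and mouse transcripts together, summed here over the transcripts of a gene and averaged over the 4 libraries), HSPA8 came first at 1509 TPM, then HSP90AB1 at 948 and HSP90AA1 at 912 TPM. HSPD1 followed at 530, HSPE1 at 314, HSPH1 at 109, DNAJB1 at 82.3, HSPA1B at 75.5, HSPA1A at 57.5 and BAG3 at 0.282 TPM. HSP90AB1 and HSP90AA1 overlapped between libraries, as did HSPH1 with DNAJB1, DNAJB1 with HSPA1B, and HSPA1B with HSPA1A. The other neighbours in this order did not overlap.

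**Figure D1:**
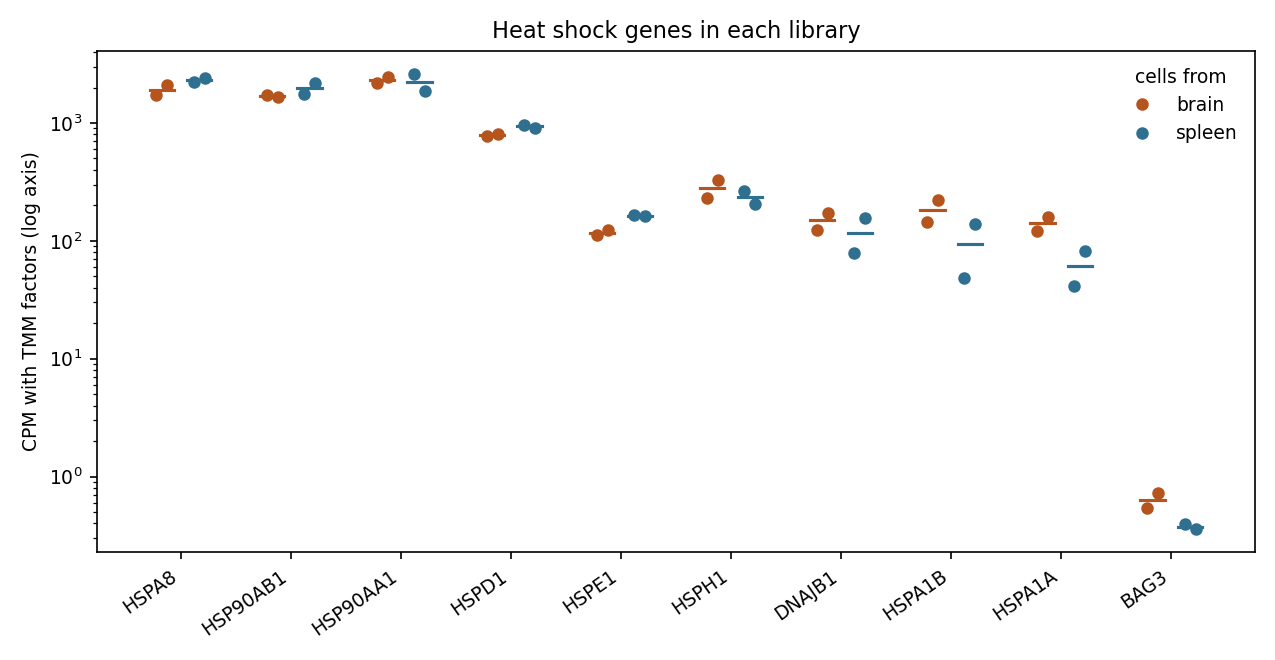
Level of each heat shock gene in CPM with TMM factors (log axis) in the 2 brain libraries and the 2 spleen libraries, with horizontal lines at the group means and genes ordered by mean TPM. HSPA1A, HSPA1B and BAG3 have both brain libraries above both spleen libraries, and HSPA8, HSP90AB1, HSPD1 and HSPE1 have both below.

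The inducible HSP70 genes had the largest fold changes among the 10. HSPA1A, which encodes stress-inducible HSP70, had 122 and 160 CPM in brain, against 41.0 and 81.9 CPM in spleen. HSPA1B, the second copy of that protein, had 145 and 223 CPM in brain, against 48.7 and 138 CPM in spleen. The means were 141 ± 26.6 CPM in brain and 61.4 ± 28.9 CPM in spleen for HSPA1A, and 184 ± 54.7 CPM in brain and 93.2 ± 63.0 CPM in spleen for HSPA1B (SD, n = 2). In both genes both brain libraries stood above both spleen libraries, but for HSPA1B spleen replicate 2 came close to brain replicate 1. The log2 fold change was 1.20 ± 0.38 (SE) for HSPA1A and 0.98 ± 0.64 for HSPA1B, and neither passed edgeR's quasi-likelihood test (adjusted p = 0.197 and 0.474, n = 2 libraries in each group here and below). The ratio of the higher to the lower library was 1.31 in brain and 2.00 in spleen for HSPA1A, and 1.53 in brain and 2.83 in spleen for HSPA1B.

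Within each occasion the brain library was the higher in both genes. For HSPA1A brain over spleen was 2.98 on occasion 1 and 1.95 on occasion 2, and for HSPA1B it was 2.99 and 1.62. With the replicate number as a block in edgeR both genes were higher in brain, at 1.27 ± 0.20 for HSPA1A (adjusted p = 5.52e-08) and 1.14 ± 0.20 for HSPA1B (adjusted p = 1.25e-06). That fit called 10.9% of all genes (7.48% higher and 3.37% lower). With only 4 libraries it takes the spread of a gene mostly from all genes together. Its SE was also 0.20 for DNAJB1 and for HSPH1, so its p-values do not measure the spread of each gene by itself. HSPA1A was also called by DESeq2 (adjusted p = 0.0204, a test that called 5.6% of genes, 3.28% higher and 2.33% lower). Without brain replicate 1 both genes were called higher (adjusted p = 0.00118 for HSPA1A and 0.0190 for HSPA1B, edgeR, where 2.25% of genes were called, 1.65% higher and 0.596% lower). Without spleen replicate 2 the log2 fold changes were 1.79 for HSPA1A and 1.93 for HSPA1B, and without spleen replicate 1 they were 0.73 and 0.37. Fits with 1 library left out assume that the lone library of a group varies like the 2 libraries of the other. With the counts of the pair added to 1 row, the log2 fold change was 1.07 ± 0.55 (adjusted p = 0.382). Set against the constitutive form, HSPA1A and HSPA1B together reached 10.9% and 12.8% of the TPM of HSPA8 in brain, against 3.27% and 7.59% in spleen.

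The constitutive HSP70, HSPA8, which also drives clathrin uncoating and chaperone-mediated autophagy, had 1723 and 2113 CPM in brain and 2239 and 2391 CPM in spleen. Both brain libraries were below both spleen libraries, with a log2 fold change of -0.27 ± 0.16 (edgeR, adjusted p = 0.360). In TPM the libraries overlapped, at 1381 and 1768 TPM in brain and 1489 and 1399 TPM in spleen.

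None of the partners of HSP70 passed the test. DNAJB1, the J-domain protein that stimulates the HSP70 ATPase, had 125 and 173 CPM in brain and 78.5 and 155 CPM in spleen, and the groups overlapped (log2 fold change 0.35 ± 0.39, edgeR, adjusted p = 0.663). Brain over spleen was 1.59 on occasion 1 and 1.12 on occasion 2, and without spleen replicate 1 the log2 fold change was -0.11. HSPH1, the HSP110 nucleotide exchange factor, had 230 and 326 CPM in brain and 263 and 206 CPM in spleen, also with overlap (0.25 ± 0.21, adjusted p = 0.532). Its direction differed between the occasions, with ratios of 0.875 and 1.59. BAG3, the co-chaperone that links HSP70 to autophagy, was near the limit of detection, with 20 and 25 counts in brain and 13 and 9 counts in spleen. Its brain libraries stood above its spleen libraries (0.541 and 0.732 CPM, against 0.394 and 0.356 CPM), with a log2 fold change of 0.75 ± 0.44 (adjusted p = 0.372).

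Neither HSP90 gene passed the test. HSP90AA1, the inducible form, had 2169 and 2455 CPM in brain and 2627 and 1850 CPM in spleen, so that the spleen libraries enclosed both brain libraries (log2 fold change 0.05 ± 0.19, edgeR, adjusted p = 0.916). Brain over spleen was 0.826 on occasion 1 and 1.33 on occasion 2, and the sign of the fold change turned with GC and length offsets (-0.13) and without brain replicate 2 or spleen replicate 2. HSP90AB1, the constitutive form, had 1720 and 1660 CPM in brain and 1766 and 2174 CPM in spleen (-0.22 ± 0.15, adjusted p = 0.447). Both brain libraries were the lower, brain replicate 1 by a small margin.

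The mitochondrial pair had lower CPM in both brain libraries than in both spleen libraries, and neither gene passed the test. HSPD1, the chaperonin HSP60, had 774 and 802 CPM in brain and 954 and 913 CPM in spleen (log2 fold change -0.24 ± 0.13, edgeR, adjusted p = 0.333). HSPE1, the lid HSP10, had 112 and 123 CPM in brain and 165 and 161 CPM in spleen (-0.47 ± 0.14, adjusted p = 0.118). Replicates lay close, with a ratio of the higher to the lower library of 1.04 for HSPD1 and 1.10 for HSPE1 in brain and of 1.04 and 1.02 in spleen. HSPE1 was 0.679 and 0.763 of the spleen level on occasions 1 and 2. With all 4 libraries edgeR called it lower without a count filter (adjusted p = 0.0463), where 854 of 34540 genes were. It was called lower with the replicate block together with GC and length offsets (edgeR, adjusted p = 0.0181), where 1110 of 17075 genes were. It was not called with the block alone (edgeR, adjusted p = 0.105). It was also called lower when either spleen library was left out. The adjusted p was 4.91e-05 without replicate 1 and 0.000566 without replicate 2. Those fits assume that the lone spleen library varies like the brain libraries, and they called 37.9% (18.9% higher, 19% lower) and 17.3% (9.64% higher, 7.63% lower) of all genes. In TPM all 4 genes with lower CPM in brain overlapped between groups, HSPE1 at 265 and 308 TPM in brain and 379 and 304 TPM in spleen.

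**Figure D2:**
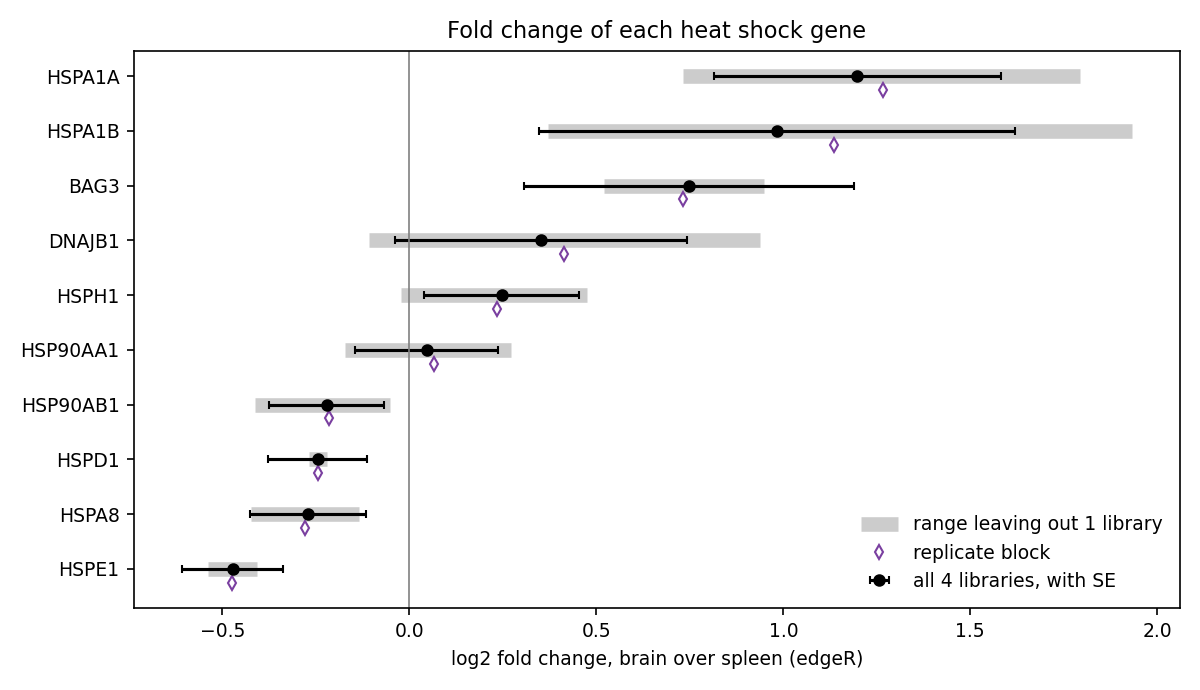
Log2 fold change of brain over spleen for each heat shock gene (edgeR): black points with SE bars use all 4 libraries, grey bars give the range over the 4 fits that leave out 1 library, and open diamonds give the fit with the replicate block. HSPA1A and HSPA1B lie at the right at 1.20 and 0.98, and HSPE1 at the left at -0.47; the grey bars of DNAJB1, HSPH1 and HSP90AA1 cross 0.

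Over the 10 genes, all of which passed the count filter, 0 were called by edgeR (adjusted p under 0.05), where 2.02% of the 17075 genes tested were called. Under an unadjusted threshold of 0.05 there were 2, HSPA1A and HSPE1, where 20.6% of all genes passed it. DESeq2 called 1, HSPA1A, and the fit with the replicate block called 2, HSPA1A and HSPA1B. Without spleen replicate 1, HSPA8 (adjusted p = 0.0297), HSP90AB1 (0.00307), HSPD1 (0.0374) and HSPE1 were called lower by edgeR, where 19% of all genes were. The libraries did not overlap for 3 genes higher in brain and 4 lower, where 30.2% of all genes were higher without overlap and 26.7% lower. The median log2 fold change was 0.15 for the 10 genes and 0.04 for all genes tested, with 6 of the 10 values above 0, where 53.3% of all genes were. With GC and length offsets the median of the 10 was -0.04, with 5 values above 0, and that of all genes was -0.07. For a single gene, 0.333 is the smallest p that an exact two-sided permutation test of 2 against 2 libraries allows.

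Averaged with equal weight on a centred log2 scale, the 10 genes stood at -0.03 and 0.25 in brain replicates 1 and 2 and at -0.26 and 0.03 in spleen replicates 1 and 2. Of 10081 other protein-coding genes with at least 5 CPM, the nearest to this profile over the 4 libraries were KMT2D (154 and 180 CPM in brain, 128 and 156 CPM in spleen; distance 0.039 on the log2 scale), LLGL2 (distance 0.055) and RALGPS1 (distance 0.056). With 4 libraries this likeness is a description only.

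The wider HSP70 family held a gene that passed with every setting run. HSPA6 (chromosome 1, 161524540 to 161526894), a strictly stress-inducible HSP70 of primates, had 13.1 and 10.7 CPM in brain, against 2.94 and 1.98 CPM in spleen. It rose by a log2 fold change of 2.26 ± 0.27 (edgeR, adjusted p = 0.00956), with brain over spleen at 4.44 and 5.41 on occasions 1 and 2. The highest adjusted p of HSPA6 under any alternative was 0.0467, with the stricter count filter. HSPA6 has a close copy, HSPA7, nearby, so that its count is uncertain. Of the 7 genes tested among the other cytosolic HSP70 and HSP110 genes, 1 rose and 0 fell, where 1.63% of all genes were called higher and 0.387% lower. With the replicate block 2 rose, HSPA6 and HSPA4L, where 7.48% of all genes were called higher. The median of the 7 was -0.04, and 0.01 with the block.

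Among small heat shock proteins 3 of 10 could be tested, 1 rose and 0 fell, where 1.63% of all genes were called higher and 0.387% lower. HSPB7, a small heat shock protein best known from heart muscle, had 108 and 68.2 CPM in brain and 30.8 and 33.8 CPM in spleen (log2 fold change 1.45 ± 0.23, edgeR, adjusted p = 0.0358). Its call ended without brain replicate 1 (adjusted p = 0.0535), without spleen replicate 1 (0.340), without spleen replicate 2 (0.388) and with the stricter filter (0.0958). HSPB1, a small heat shock protein that HSF1 also induces, had 97.7 and 125 CPM in brain and 113 and 223 CPM in spleen.

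Calls among the co-chaperones and other folding machines are set beside the shares over all genes. By edgeR 1.63% of all genes were called higher and 0.387% lower, and with the replicate block 7.48% and 3.37%. Lists of this size would hold few calls at these shares. Over all genes 20.6% had an unadjusted p under 0.05 in edgeR. Of 20 other genes known to respond to HSF1, some of them in the other lists too, 1 rose, HSPA6, and 0 fell. Of the 20, 15 had a negative log2 fold change, where 53.3% of all genes were above 0, and the median was -0.25. In CPM 10 of the 20 were lower in brain without overlap and 3 higher, where 26.7% and 30.2% of all genes were. In TPM 4 were lower without overlap and 3 higher, and the share of all genes in TPM was not computed. With the replicate block 2 rose, HSPA6 and HSPA4L, and 1 fell, FKBP4. Of 13 cytosolic J-domain genes 0 passed edgeR (2 at an unadjusted p under 0.05, and 1, DNAJB14, higher with the block), with a median of -0.16, and DNAJA1 had 311 and 368 CPM in brain and 449 and 468 CPM in spleen (log2 fold change -0.44, adjusted p = 0.150). DNAJB6 was at -0.28 (adjusted p = 0.299). Of 21 co-chaperones of HSP70 and HSP90 0 passed edgeR (8 at an unadjusted p under 0.05, and 1, FKBP4, lower with the block), with a median of -0.27. PTGES3, the HSP90 co-chaperone p23, had 494 and 517 CPM in brain and 600 and 752 CPM in spleen (-0.42, edgeR, adjusted p = 0.186), and BAG6 was at -0.03 (adjusted p = 0.930).

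The cytosolic chaperonin TRiC folds actin and tubulin. All 8 of its subunits had both brain libraries below both spleen libraries in CPM, where 26.7% of all genes did. In TPM 4 of the 8 did, and the share of all genes in TPM was not computed. None of the 8 passed edgeR (5 at an unadjusted p under 0.05, where 20.6% of all genes were, and 0 with the block), and the median was -0.35. CCT5 had 429 and 437 CPM in brain and 536 and 577 CPM in spleen (log2 fold change -0.36, edgeR, adjusted p = 0.182), and CCT7 was at -0.41 (adjusted p = 0.182). Of 14 other mitochondrial chaperones and proteases 0 passed edgeR (3 at an unadjusted p under 0.05, 0 with the block), with a median of -0.20, and HSPA9, the mitochondrial HSP70, had 322 and 311 CPM in brain and 381 and 363 CPM in spleen. Its log2 fold change was -0.23 (edgeR, adjusted p = 0.342) and that of YME1L1, an inner membrane protease, 0.26 (adjusted p = 0.331). Of 14 chaperones of the endoplasmic reticulum 0 passed edgeR (5 at an unadjusted p under 0.05), with a median of -0.29. With the block 2 of them were lower, SDF2L1 and MANF, where 3.37% of all genes were. CANX was at 0.05 (edgeR, adjusted p = 0.887) and PDIA6 at -0.17 (adjusted p = 0.493). Of 5 heat shock factors and regulators tested 0 passed edgeR (1 at an unadjusted p under 0.05, 0 with the block), and HSF1 had 82.1 and 87.1 CPM in brain and 82.3 and 108 CPM in spleen (-0.17, adjusted p = 0.599). HSBP1, a negative regulator of HSF1, was at -0.47 (adjusted p = 0.145).

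Immediate early genes, which switch on within minutes of a stimulus and are known to rise when tissue is dissociated, are given beside them. Of 23 tested 6 rose in brain and 0 fell, with a median log2 fold change of 0.38, where 1.63% of all genes were called higher. They were NR4A1 (4.98 and 3.69 CPM in brain, against 0.334 and 0.277 CPM in spleen; edgeR, adjusted p = 0.00358), FOS (56.8 and 34.1 CPM in brain, against 14.7 and 15.6 CPM in spleen; adjusted p = 0.0363), JUN (24.6 and 16.1 CPM in brain, against 6.22 and 8.15 CPM in spleen; adjusted p = 0.0367), BTG2 (69.2 and 53.8 CPM in brain, against 24.8 and 31.9 CPM in spleen; adjusted p = 0.0377), DUSP1 and PPP1R15A. With the block EGR1 was called as well, where 7.48% of all genes were called higher. The call of FOS ended without spleen replicate 1 (adjusted p = 0.329) or 2 (0.380), that of BTG2 without brain replicate 1 (0.162) and that of PPP1R15A without brain replicate 1 (0.335) or 2 (0.0925). With the stricter filter NR4A1 was not tested and the other 5 were not called, at adjusted p between 0.0907 and 0.0983. Whether the early genes and the heat shock genes differ in their response was not tested.

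**Figure D3:**
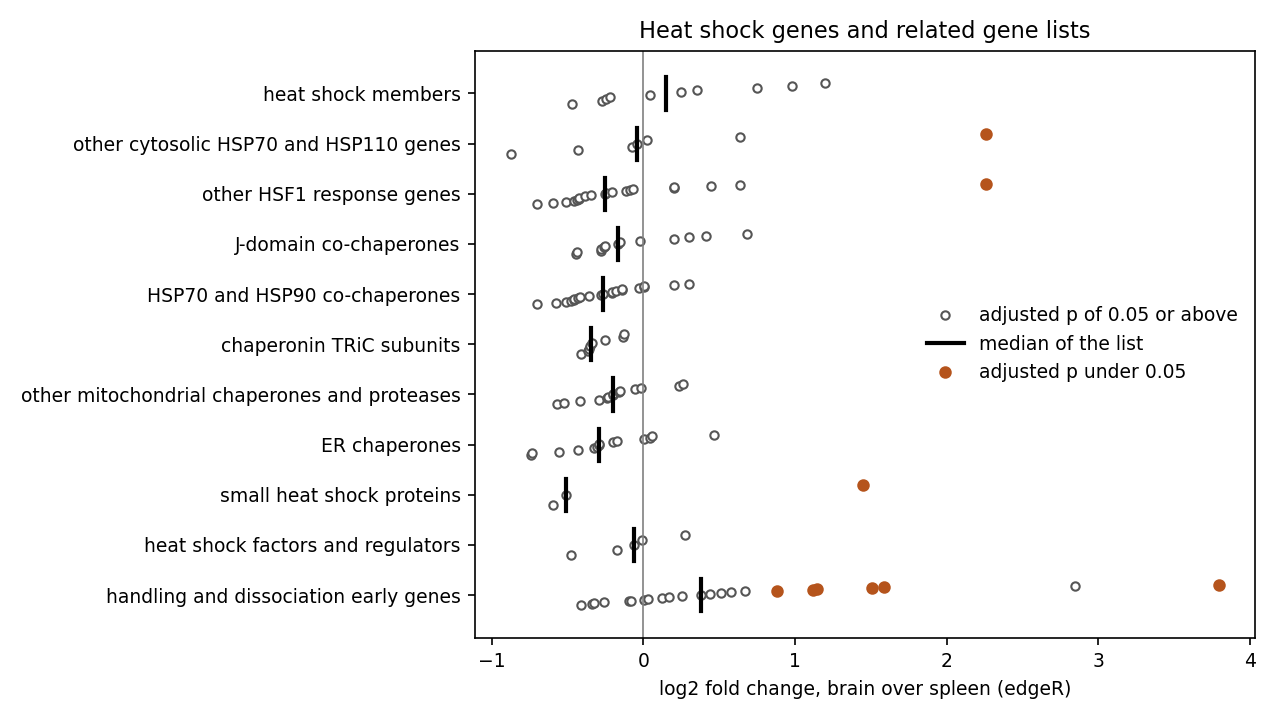
Log2 fold change of brain over spleen (edgeR) for each tested gene of the heat shock group and of 10 related lists, 1 row a list, with a vertical bar at the list's median and filled points for genes with an adjusted p under 0.05. No gene of the top row is filled; HSPA6, which stands in 2 lists, HSPB7 and 6 early genes are, and the medians of the other chaperone lists lie between -0.51 and -0.04.

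The transcript files split the counts of each gene over its annotated forms. Of 83 transcripts of the 10 genes 30 reached a mean of 100 estimated counts in genes with more than 1 form. The share of its gene differed at least 4-fold between sites without overlap for 1 that was higher in brain and 2 that were lower, where 1.9% and 1.76% of 21813 transcripts did so; the limits of 100 and 4 were chosen after the values were seen.

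HSPA8-220 (chromosome 11, 123058791 to 123062139, 5 exons, 465 bases, no defined coding sequence) took 3.16% and 2.94% of the counts of HSPA8 in brain, against 0.144% and 0.0488% in spleen. HSPA8-221, a coding form of 8 exons that lacks, among other differences, the exon at 123060116 to 123060268 of the main form, took 9.49% and 9.41% in brain, against 24.3% and 25.7% in spleen. The main form HSPA8-201 took 79.6% and 79.8% in brain, against 71.3% and 71.1% in spleen. Its annotated start, at 123061332 on the minus strand, lies downstream of the HSPA8 promoter window shown above. These forms share most of their sequence, and the estimates divide the same reads between them.

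HSPA1A-202, in which the bases between 31815831 and 31816327, within the single exon of HSPA1A-201, are spliced out, took 0% and 0.611% of the counts of HSPA1A in brain, against 17.6% and 25.8% in spleen. HSPH1-203, a form of 812 bases at the 3′ end of the gene, took 1.26% and 0.633% in brain, against 3.43% and 6.88% in spleen. The share of mouse counts was also the higher in spleen, and its part in these shares was not tested. Over the 10 genes, forms with a retained intron took 1.05% and 1.31% of the counts in brain and 0.718% and 0.538% in spleen, where over all human transcripts they took 4.14% and 4.76% in brain and 4.38% and 4.39% in spleen.

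**Figure D4:**
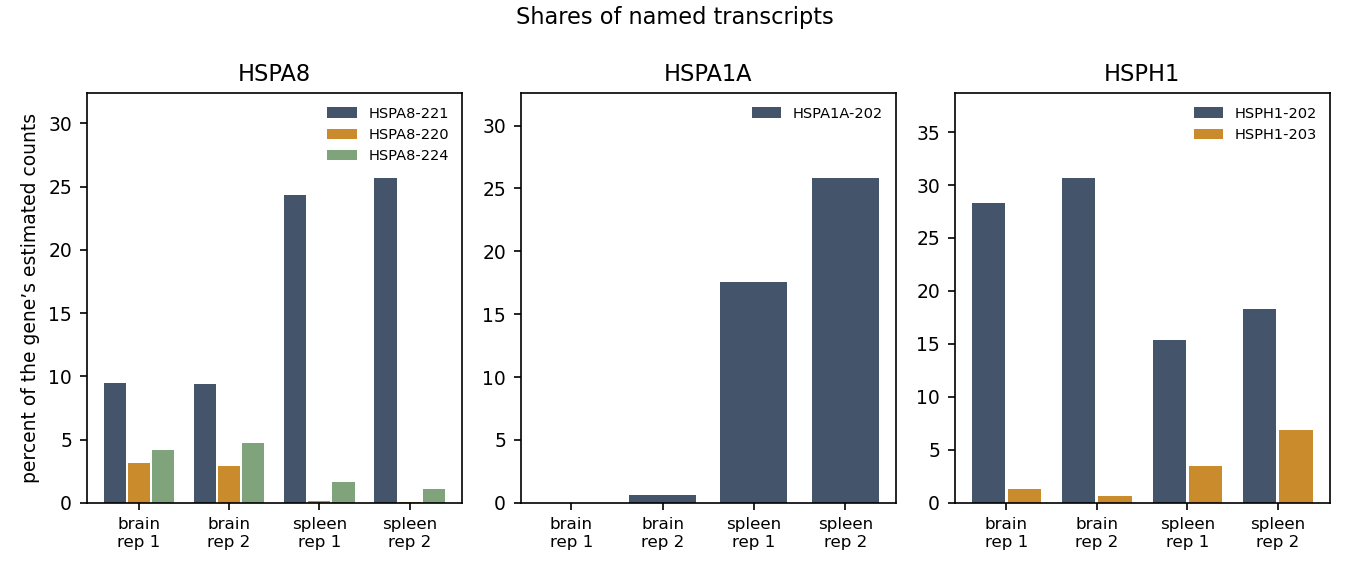
Percent of the estimated counts of HSPA8, HSPA1A and HSPH1 assigned to named transcripts in each library, with the brain libraries at the left of each panel. HSPA8-221 and HSPA1A-202 take a larger share in both spleen libraries, and HSPA8-220 and HSPH1-202 in both brain libraries.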

How the data were processed

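Stranded mRNA libraries were sequenced, per the labels' protocols. The submitters' processing notes name kallisto 0.42.4, cutadapt 1.5, bcl2fastq 1.8.4 and DESeq2 and the builds GRCh38 and GRCm38, without settings. Transcript files that the authors deposited hold estimated counts and TPM for 199596 human and 104229 mouse transcripts together, and the deposited gene table holds whole numbers, used as estimated counts. For 74.2% to 74.8% of genes over 50 counts these agreed within 1 count with the transcript sums under GENCODE release 44, and for the rest they did not. 1 further column of the count table matches no sample and was not used, nor was the deposited table of log values. Identifiers were looked up in GENCODE release 44 (86.4% found).

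Brain was compared with spleen by edgeR 4.0.16 (R 4.3.3; TMM, filterByExpr, robust quasi-likelihood fit, Benjamini-Hochberg over 17075 genes, threshold 0.05). The code of the test was checked on simulated counts. These had the same spread for every gene and both groups and no pairing, unlike the data, so the check does not cover those features. Standard errors are those implied by the test statistic. Alternatives were RLE factors, no filter, at least 10 CPM in 2 libraries, DESeq2 1.42.0, the replicate block, GC and length offsets (mgcv 1.9.3, values for 97.8% of genes), transcript sums, added pseudogene counts and each library left out. Per the labels a replicate number marks an occasion and so pairs the libraries; same-numbered libraries deviated from their group means with a Pearson correlation of 0.0269 across genes. Nothing says that pools of a group are independent beyond the occasion. The p-values rest on the spread between these libraries, which the fits share over genes. With the replicate block they rest mostly on that shared spread, so a very small value there does not measure the spread of a single gene. The floor of 3 counts covers counting error only. Named genes were all 10 members and, of each other list, up to 4 called genes by p or the 2 of highest level; the 3 genes of nearest profile were the closest by Euclidean distance. GFAP, SNAP25, PTGDS, COL1A1, CD3D, S100A8, PF4, PECAM1, VWF, IGLL1, CD79B, EBF1, HSPB1, DUSP1, PPP1R15A, FKBP4, HSPA4L, DNAJB14, SDF2L1, MANF and EGR1 were named after their values were seen. The members and lists were chosen with earlier results of these data known.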

Additional observations from a re-analysis of the deposited data

How the results depend on the processing

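Of 129 alternative values of the 10 fold changes, 107 kept their direction and their side of the threshold, 16 passed a threshold that they had missed and 6 turned their sign, none of them called. The 6 were HSP90AA1 with GC and length offsets (-0.13), with these offsets and the replicate block (-0.13), without brain replicate 2 (-0.04) and without spleen replicate 2 (-0.17), HSPH1 without brain replicate 2 (-0.024) and DNAJB1 without spleen replicate 1 (-0.11). With 1 library left out, HSP90AA1 ran between -0.17 and 0.27, HSPH1 between -0.024 and 0.47 and DNAJB1 between -0.11 and 0.94. The log2 fold change of HSPA1A ran between 0.73 and 1.79 and that of HSPA1B between 0.37 and 1.93, both lowest without spleen replicate 1 and highest without spleen replicate 2. The number of the 10 genes called, 0 with all libraries, was 2 without a filter (HSPA1A and HSPE1), 1 by DESeq2, 2 with the replicate block, 3 with the block and the GC and length trend removed (HSPA1A, HSPA1B and HSPE1), and 0 to 4 when 1 library was left out. The 4 were HSPA8, HSP90AB1, HSPD1 and HSPE1, all lower in brain without spleen replicate 1. Over all genes 345 were called, with 2123 without a filter, 76 with the stricter filter, 957 by DESeq2, 1853 with the block, 757 with the trend removed, 2236 with the trend removed and the block, and 404 to 6807 when 1 library was left out. Genes called in the other chaperone and early-gene lists were 8, with 18 without a filter, 1 with the stricter filter, 14 with the block, 24 with the block and the trend removed, and 6 to 73 when 1 library was left out. The genes tested numbered 17075 with the main setting, by DESeq2, with the block and with the trend removed. They numbered 34540 without a filter, 9591 with the stricter filter and 17819 to 18106 when 1 library was left out. Counts of calls are therefore not directly comparable between these settings. How many listed genes were tested with each setting is not given here, so the list counts are not shares. Over all genes the median fold change (log2) stood at 0.04, and at -0.07 with GC and length offsets. The cause of each shift was not tested. Samples left alone in a group were assumed to vary like the other group. BAG3, with 9 to 25 counts a library, is limited by depth and fell under the stricter filter.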

Other observations

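Paired members can be set side by side in TPM. HSP90AA1 over HSP90AB1, the inducible over the constitutive form, was 0.963 and 1.14 in brain, against 1.12 and 0.641 in spleen. Spleen replicate 2 thus stood apart from the other 3 libraries. HSPA1A made up 46.0% and 42.2% of the HSPA1A and HSPA1B sum in brain, against 47.5% and 39.6% in spleen, which differed by occasion more than by site. HSPD1 over HSPE1, the chamber and its lid, was 1.89 and 1.86 in brain, against 1.51 and 1.57 in spleen, with no overlap between sites. These ratios are descriptions of 4 libraries, with no test.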
